A study of Rattus norvegicus with 12 samples.

Results

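The vesicle trafficking genes described here were 95 genes whose symbol starts with Rab, Stx, Vamp, Snap or Sec followed by a digit, or is Vapa or Vapb. They were picked by name from the annotation of the Affymetrix RAE 230A array, among probe sets that name a single gene, and they held 128 of the 15866 probe sets and 95 of the 10411 genes named. A further 2 probe sets that name Rab1a and Rab1b together were left out. The brightest probe set, that with the highest mean log2 signal over all arrays, stands for each gene, and both probe sets of Vapb are given.

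Lung RNA was measured in 5 normal and 7 diabetic male Wistar rats, with 1 array per animal and no pooling. The diabetic rats had received streptozotocin, which is toxic to pancreatic beta cells, into the peritoneum at 8 weeks of age, and the normal rats had received the citrate buffer alone. All animals were 12 weeks old when both lungs were removed after a night without food, so the diabetic group had lived 4 weeks after the injection. No group was given streptozotocin and kept from diabetes, so effects of the toxin and of the diabetes cannot be told apart. Each array measured whole lung, in which fewer cells of a type and less RNA per cell cannot be told apart. Values are MAS 5.0 signals, an intensity on a linear scale that the authors computed for each probe set from perfect match and mismatch probes.

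Cargo moves between compartments of a cell in membrane vesicles. Sec proteins carry new proteins into the endoplasmic reticulum and build the COPII coat that buds vesicles from it. Rab GTPases switch between a GTP-bound and a GDP-bound form and, when active, recruit the tethers and motors that bring a vesicle to its target. SNARE proteins, which include the syntaxins, the VAMPs and the SNAP proteins, then zip together and fuse the membranes. Vapa and Vapb encode a pair of related proteins anchored in the endoplasmic reticulum, which hold it to other organelles by binding lipid transfer proteins. In the lung, alveolar type II cells use this machinery to make and secrete lamellar bodies filled with surfactant.

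The authors had scaled each array to a common trimmed mean, so a likeness of the arrays in scale was set by that step. The median signal was 260 to 272 in the normal and 253 to 266 in the diabetic animals (exact permutation test, two-sided, p = 0.12). The 3' to 5' signal ratio of the control gene GAPDH, which depends on RNA integrity, was 1.32 ± 0.0778 (SD) in normal and 1.15 ± 0.0711 (SD) among the diabetic animals (two-sided exact permutation test, p = 0.00505), whereas that of beta-actin did not differ detectably (exact permutation test, p = 0.92). Markers of alveolar type II cells were present in every animal, with a summed signal of 74601 to 90622 over 6 genes in normal and 72411 to 94952 in diabetic lung. The sums of the alveolar type I, endothelial, macrophage and platelet markers also overlapped. In these lists, Aqp5 (log2 change -0.52) and Ager (-0.24) of type I cells and Pf4 (-0.49) of platelets were lower at an unadjusted p under 0.05. Hopx (0.23) of type I cells, Csf1r (0.29) of macrophages and Slc34a2 (0.17) of type II cells were higher. The summed signal of 6 fibroblast markers, 3 of them collagen genes, was 16284 to 17826 in normal and 9101 to 13930 in diabetic lung, without overlap. At an unadjusted p under 0.05, 4 genes of this list were lower and Pdgfra alone was higher (log2 change 0.58). The lower sum came mainly from the collagen genes. Means in normal and diabetic lung were 8739 and 4809 for Col3a1, 2494 and 1390 for Col1a2, and 1759 and 889 for Col1a1. Of the other 3 genes, Pdgfra (2200 and 3337) and Dcn (1565 and 1768) had the higher mean in diabetic lung. Lum (282 and 189.8) had the lower one. Whether the number of fibroblasts differed was not tested. Some changes below are also given with the GAPDH ratio as a covariate. That ratio differed between the groups, so its part could not be separated from that of diabetes. The part of the cell makeup in the results below was not tested.

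No trafficking gene passed an adjusted p of 0.05. Log2 signals were compared in limma, with p-values adjusted by the Benjamini-Hochberg method over 9520 probe sets. The dimmest 40% of all probe sets, with a mean under a signal of 170, had been set aside without regard to group. Of the 95 genes, 80 could be tested, and 0 of these 80 passed an adjusted p of 0.05, against 16 of all 9520 probe sets (0.168%). At an adjusted p under 0.10 there were 2 trafficking genes, Vapa and Stx6, or 2.5% of those tested, beside 2.06% of all probe sets. At an unadjusted p under 0.05 there were 14 (17.5%), beside 16.4% of all probe sets, with 6 higher (7.5%, beside 7.75%) and 8 lower (10%, beside 8.68%). The shares of trafficking genes were thus near those of all probe sets. With the GAPDH 3' to 5' ratio as a covariate 288 probe sets passed an adjusted p of 0.05, and 1 trafficking gene was among them. It was Sec14l1, a relative of yeast Sec14, with a log2 change of 0.60 in that fit. Its means were 1394 ± 263 (SD, n = 5) in normal and 1400 ± 372 (SD, n = 7) in diabetic lung, and its change without the covariate was -0.01.

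The family as a whole lay close to no difference. The median log2 change (diabetic minus normal) over the 80 genes was -0.02, beside -0.01 over all probe sets tested, and the changes ranged from -0.32 to 0.41. A positive change was found for 34 genes (42.5%), beside 47.2% of all probe sets, and a negative one for 46 (57.5%, beside 52.8%). The group means of 53 genes differed by less than 1.1-fold, and those of 8 genes by 1.2-fold or more. The shares of all probe sets at these fold limits were not computed. The log2 change lay within 0.1 of 0 for 40 of the 80 genes, and for 4316 of all 9520 probe sets tested. The 95% confidence interval reached a median of 0.204 on the log2 scale to either side of the change, so a difference much smaller than this could not be resolved for a typical gene. Among normal animals the coefficient of variation of the signal had a median of 10.8% (range 3.87% to 29.9%) over these genes, and 11.8% over all probe sets tested.

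**Figure D1:**
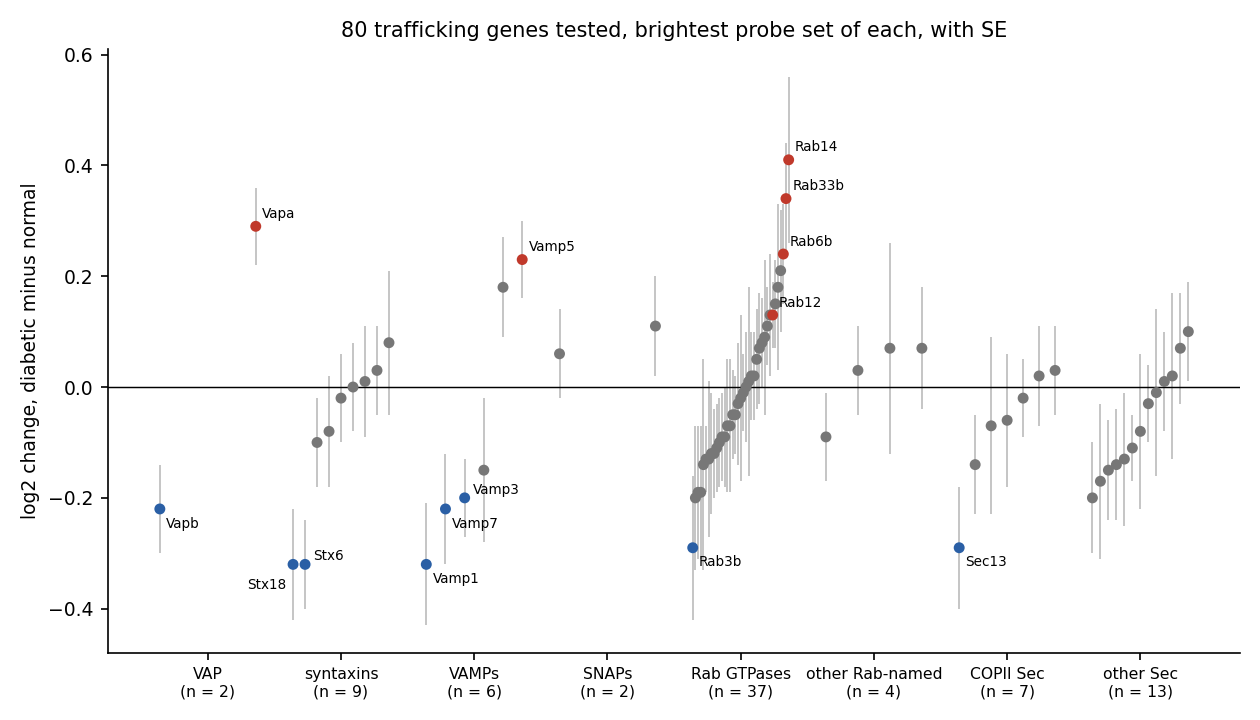
Log2 change (diabetic minus normal) of the brightest probe set of each of the 80 trafficking genes tested, by gene group, with bars for the SE from limma. Colored and named points are the 6 genes higher (red) and the 8 lower (blue) at an unadjusted p under 0.05, and no gene passed an adjusted p of 0.05.

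Groups that do not overlap, with every diabetic animal on the same side of every normal animal, were found for 3 of the 80 genes (3.75%), beside 2.04% of all probe sets. Vapa and Rab33b were higher in this way (2.5%, beside 0.924%) and Stx6 was lower (1.25%, beside 1.11%). Leaving out normal animal 2 or normal animal 3 gave 5 such genes. Leaving out an animal can only keep or raise this count, and the share of all probe sets was not computed for these omissions. The promoters of those of the 3 that have an entry in the RefSeq promoter table, and that of Vapb, are shown because the results turn on these genes. Vapa had no entry. Each run is 5' to 3' in the genome build GRCr8, from 250 bases before to 50 bases after the annotated start, and capitals mark the GC box, GGGCGG or its complement CCGCCC, to which factors of the Sp family bind.
Vapb (chr3:182953997-182954296, + strand): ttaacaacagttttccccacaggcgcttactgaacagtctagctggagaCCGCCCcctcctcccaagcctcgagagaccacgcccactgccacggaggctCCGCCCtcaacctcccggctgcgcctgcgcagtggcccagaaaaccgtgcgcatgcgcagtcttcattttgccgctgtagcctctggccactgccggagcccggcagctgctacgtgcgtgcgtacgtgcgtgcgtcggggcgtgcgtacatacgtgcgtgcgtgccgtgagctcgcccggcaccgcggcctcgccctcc
Stx6 (chr13:69882397-69882696, + strand): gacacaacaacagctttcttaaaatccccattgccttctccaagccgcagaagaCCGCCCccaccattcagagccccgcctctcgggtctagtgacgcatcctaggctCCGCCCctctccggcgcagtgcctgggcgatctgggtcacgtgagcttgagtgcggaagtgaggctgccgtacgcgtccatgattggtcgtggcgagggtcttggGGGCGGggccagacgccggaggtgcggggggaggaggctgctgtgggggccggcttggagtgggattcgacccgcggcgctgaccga
Rab33b (chr2:137678728-137679027, + strand): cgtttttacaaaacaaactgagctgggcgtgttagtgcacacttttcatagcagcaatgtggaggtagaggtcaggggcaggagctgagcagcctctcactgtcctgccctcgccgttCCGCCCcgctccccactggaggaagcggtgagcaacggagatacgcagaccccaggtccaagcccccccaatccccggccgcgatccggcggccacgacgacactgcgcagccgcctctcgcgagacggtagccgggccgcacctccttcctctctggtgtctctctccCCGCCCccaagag

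The Vapb window held 2 GC boxes and 67% G and C, the Stx6 window held 3 GC boxes, 1 CCAAT box and 1 E-box (66% G and C), and the Rab33b window held 2 GC boxes and 1 CCAAT box (64.3%). None of the windows of Vapb, Stx6 and Rab33b held TATAAA. Of the 77 trafficking genes with a promoter in the table, 62 had a GC box on either strand (80.5%). The share was 65.6% of 5918 promoters of genes tested and 33.1% of all 33469 promoters. The 77 were drawn from all 95 trafficking genes, tested or not, whereas the 5918 were of tested genes only. The CCAAT box was present in 36.4% of the trafficking promoters and in 37.7% of those of genes tested. The E-box CACGTG was present in 9.09% and 9.77%, and TATAAA in 3.9% and 6.88%, respectively. These are matches of letters and say nothing of which factors bind.

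The VAP genes had changes of opposite sign. Vapa had signals of 4206, 4816, 4824, 4017 and 4913 in the normal animals, and of 5142 (lowest), 5614 (median) and 5922 (highest) in the diabetic animals. All 7 diabetic animals were above the highest normal animal. The mean was 4555 ± 412 (SD, n = 5) in normal and 5540 ± 328 (SD, n = 7) in diabetic lung, a 1.22-fold difference. The log2 change was 0.29 (SE 0.07, 95% confidence interval 0.14 to 0.44), with an unadjusted p of 0.00101 and an adjusted p of 0.0805 from limma. Over the 22 alternative ways of processing, the change stayed between 0.24 and 0.31, and its adjusted p ranged from 0.0791 to 0.236.

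Vapb, the partner of Vapa in the same complex at membrane contact sites, was measured by 2 probe sets. The brighter one had signals of 578, 766, 669, 609.7 and 629.5 in the normal animals, and of 501 (lowest), 573 (median) and 587 (highest) in the diabetic animals. The groups overlapped, with 5 of 7 diabetic animals below the lowest normal animal. The mean was 650.2 ± 72.3 (SD, n = 5) in normal and 556 ± 33.3 (SD, n = 7) in diabetic lung. The log2 change was -0.22 (SE 0.08, 95% confidence interval -0.39 to -0.05), with an adjusted p of 0.201 from limma. Over the 22 alternatives it was -0.29 to -0.16, with an adjusted p of 0.107 to 0.376.

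The dimmer Vapb probe set had the larger change. Its signals were 212, 150.5, 171, 204 and 238 in the normal animals, and 55.7 (lowest), 65.4 (median) and 165 (highest) in the diabetic animals. In 6 of 7 diabetic animals the signal was below that of the lowest normal animal, and animal 1 at 143 came closest to it. Diabetic animal 6 at 165 was within the normal range. The mean was 195 ± 34.6 (SD, n = 5) in normal and 93.7 ± 43.9 (SD, n = 7) in diabetic lung, a fold change of -2.08 (negative for a lower mean in diabetic lung). This probe set lay under the filter on low signals. When all probe sets were kept, its log2 change was -1.16 (SE 0.27), with an adjusted p of 0.12 from limma, and over the alternatives the adjusted p was 0.0573 to 0.567. With the GAPDH 3' to 5' ratio as a covariate the change was -0.58, and that ratio itself differed between the groups, so its part could not be separated from that of diabetes. The study selected Vapb from these same animals, so its direction here is not independent evidence.

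The difference between the probe sets of Vapb was itself measured in each animal, as the log2 signal of the brighter minus that of the dimmer. It was 1.45, 2.35, 1.97, 1.58 and 1.4 in the normal animals, and 1.8 (lowest), 2.94 (median) and 3.38 (highest) in the diabetic animals. The groups overlapped, but the mean difference was 0.94 larger in diabetic lung (exact permutation test over 792 arrangements of the arrays, two-sided, p = 0.0177). The probe sets were singled out with earlier results of these same animals known, so this p is not independent evidence. The dimmer probe set lay under the filter (median 65.4 in the diabetic animals), so the difference rests on a low signal. With the GAPDH ratio as a covariate in a linear model, an alternative added after seeing the data, the gap was 0.34 (SE 0.46, 95% confidence interval -0.69 to 1.38), so unequal changes of the probe sets were not shown in that model. Which transcripts each probe set detects was not tested.

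**Figure D2:**
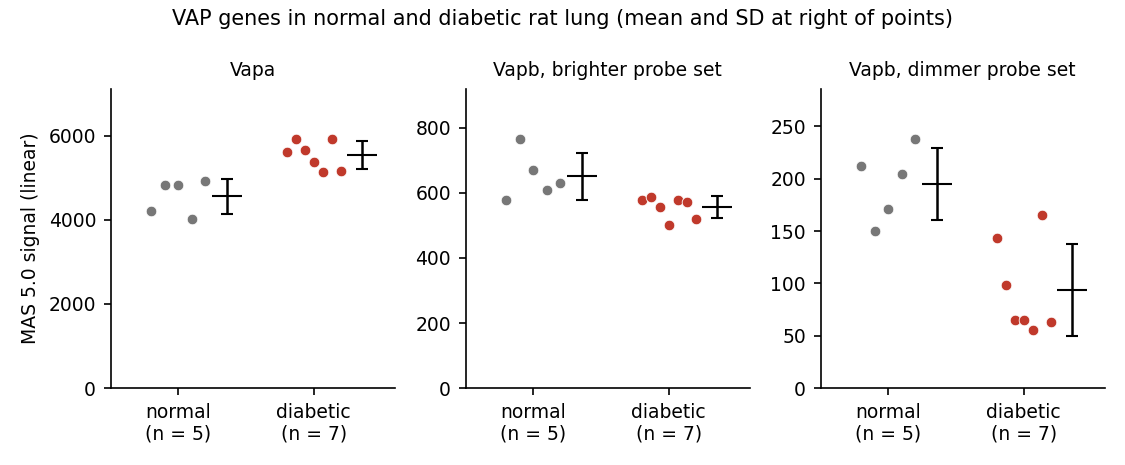
MAS 5.0 signal (linear scale) of Vapa and of both probe sets of Vapb in each animal, with normal animals in gray and diabetic animals in red, and the mean with SD at the right of each group. Vapa did not overlap between the groups, the brighter Vapb probe set had means of 650.2 and 556, and the dimmer one had means of 195 and 93.7.

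Among SNARE genes (the syntaxins, the VAMPs, Snap23, Snap25, Snap29 and Sec22b), 18 of 21 were tested. At an unadjusted p under 0.05, 1 was higher and 5 were lower, beside 7.75% and 8.68% of all probe sets, and 11 of the 18 had a negative log2 change, beside 52.8%. The list was chosen with these results known, and its count has no test of its own. Stx6, a syntaxin of the trans-Golgi network and endosomes, had signals of 877, 824, 687, 846 and 740.4 in the normal animals, and of 576 (lowest), 646 (median) and 674 (highest) in the diabetic animals. All 7 diabetic animals were below the lowest normal animal. The means were 795 ± 78.9 (SD, n = 5) and 633 ± 38.7 (SD, n = 7), a fold change of -1.25. The log2 change was -0.32 (SE 0.08, 95% confidence interval -0.49 to -0.15), with an unadjusted p of 0.00098 and an adjusted p of 0.0793 from limma. Over the 22 alternatives the change was -0.38 to -0.29, with an adjusted p of 0.0698 to 0.207. A dimmer Stx6 probe set under the filter had means of 133 ± 21.8 (SD, n = 5) and 112 ± 14.5 (SD, n = 7), with overlap.

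Stx18, a syntaxin of the endoplasmic reticulum that receives vesicles returning from the Golgi, had signals of 768, 734, 691, 869.5 and 856 in the normal animals, and of 534 (lowest), 618 (median) and 786 (highest) in the diabetic animals. In 6 of 7 diabetic animals it was below the lowest normal animal, and diabetic animal 3 was within the normal range. Its log2 change was -0.32 (SE 0.10), with an adjusted p of 0.145 from limma, and it was -0.17 with the GAPDH ratio as a covariate. The other syntaxins were closer to 0. Stx8 and Stx16 had log2 changes of -0.10 (95% confidence interval -0.28 to 0.08) and -0.08 (-0.29 to 0.14). With the same covariate they were at -0.03 and -0.20. Stx7 and Stx12, which serve endosomes, had changes of -0.02 (-0.18 to 0.15) and 0.00 (-0.18 to 0.18), with signs that turned under other settings. In the 9 syntaxins tested, 3 had a positive change and 6 a negative one, beside 47.2% and 52.8% of all probe sets, with a median of -0.02.

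All 6 VAMP genes on the array were tested, and an unadjusted p under 0.05 was found for 1 that was higher and 3 that were lower, beside 7.75% and 8.68% of all probe sets. Vamp3, also called cellubrevin, acts in recycling endosomes. It had signals of 1967, 1902, 1868, 2040 and 1654 in the normal animals, and of 1523 (lowest), 1681 (median) and 1728 (highest) in the diabetic animals. Apart from normal animal 5 at 1654, the normal animals were all above the highest diabetic animal. The log2 change was -0.20 (SE 0.07), with an adjusted p of 0.183 from limma.

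Vamp1, the synaptobrevin best known from nerve endings, had signals of 297, 216, 268, 245 and 258 in the normal animals, and of 167 (lowest), 206 (median) and 241 (highest) in the diabetic animals. In 5 of 7 diabetic animals it was below the lowest normal animal, and its log2 change was -0.32 (SE 0.11, adjusted p = 0.189 from limma). A second tested probe set of Vamp1 had a change of -0.08 (SE 0.19). Of 7 neuronal or neuroendocrine marker genes, 6 were under the filter. The summed signal of all 7 was 642 to 925 in normal and 527 to 698 in diabetic lung. Syp, the gene tested, had means of 453 and 363 and a log2 change of -0.33 (SE 0.15, adjusted p = 0.291 from limma). The part of these marker genes in the Vamp1 values was not tested.

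Vamp7, a SNARE of late endosomes and lysosomes, had signals of 1081, 1248, 1147, 1109 and 1058 in the normal animals, and of 808 (lowest), 908 (median) and 1145 (highest) in the diabetic animals. Here 4 of 7 diabetic animals were below the lowest normal animal and the other 3 were within the normal range, with a log2 change of -0.22 (SE 0.10, adjusted p = 0.297 from limma). Vamp5, also called myobrevin, had a change of the other sign. It had signals of 491, 565, 526, 461 and 514 in the normal animals, and of 556 (lowest), 607 (median) and 645 (highest) in the diabetic animals. In 6 of 7 diabetic animals the signal was above that of the highest normal animal, in 1 of these by less than 1 signal unit, and the log2 change was 0.23 (SE 0.07, adjusted p = 0.148 from limma). Vamp8, or endobrevin, a SNARE of endosomes and of secretory granules, had means of 3409 ± 344 (SD, n = 5) and 3863 ± 450.1 (SD, n = 7). Its log2 change was 0.18, with a 95% confidence interval of -0.01 to 0.37, and 0.31 with the GAPDH ratio as a covariate.

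The 2 SNAP genes tested had small changes. Snap23, the plasma membrane partner of the syntaxins in cells other than neurons, had a log2 change of 0.11 (95% confidence interval -0.09 to 0.31), and a second probe set had 0.15 (SE 0.08). The brightest had 0.02 with the GAPDH ratio as a covariate. Snap29, which acts in the fusion of autophagosomes, had a change of 0.06 (-0.12 to 0.24). Snap25, the neuronal member, was under the filter, with means of 23.1 ± 16.2 (SD, n = 5) and 24.2 ± 19.7 (SD, n = 7).

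**Figure D3:**
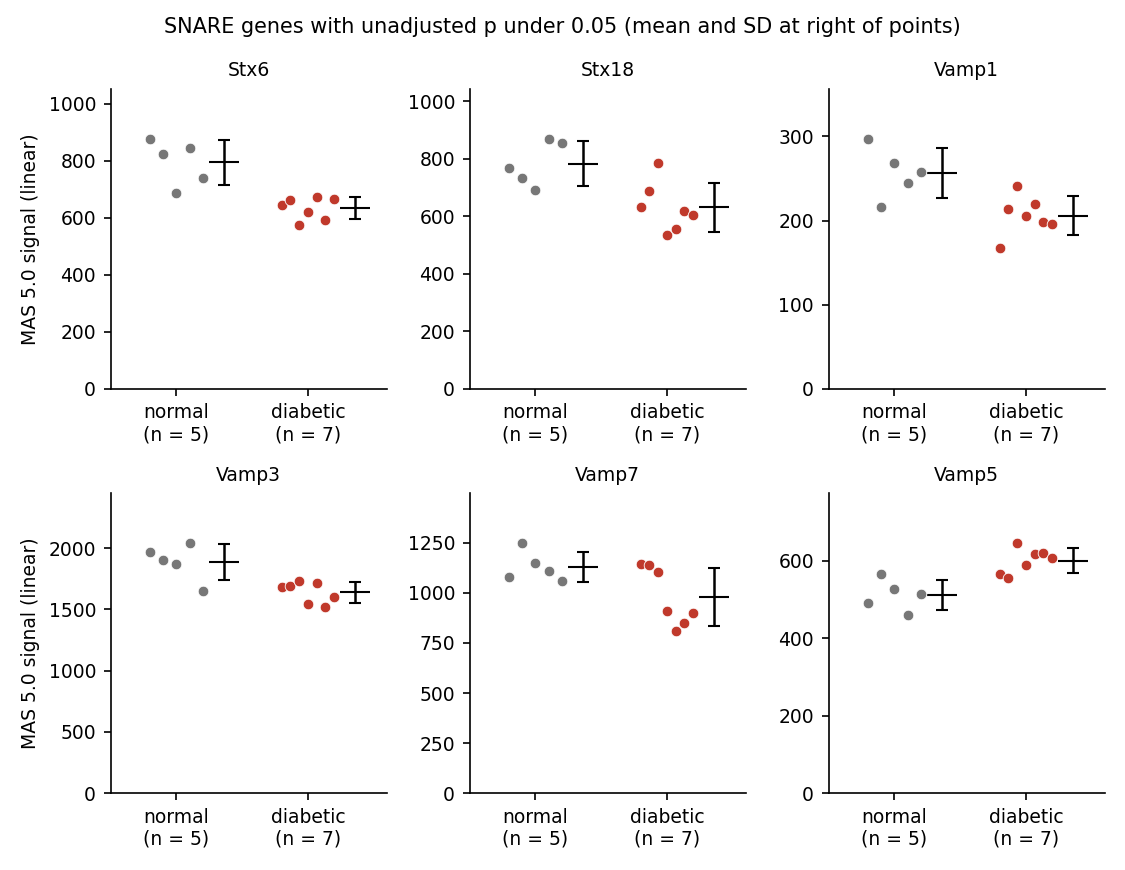
MAS 5.0 signal (linear scale) in each animal of the 6 syntaxin and VAMP genes with an unadjusted p under 0.05, with the mean and SD at the right of each group. Stx6 did not overlap between normal (gray) and diabetic (red) animals, 5 of the 6 genes had the lower mean in diabetic lung, and Vamp5 had the higher one.

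Of 44 Rab GTPases, 37 were tested, and an unadjusted p under 0.05 was found for 4 that were higher and 1 that was lower, beside 7.75% and 8.68% of all probe sets. The median log2 change was -0.02. Rab33b, a Golgi Rab that also takes part in the making of autophagosomes, had signals of 278, 294, 315, 325 and 317 in the normal animals, and of 326 (lowest), 379 (median) and 485 (highest) in the diabetic animals. The groups did not overlap, but the lowest diabetic animal at 326 lay next to the highest normal animal at 325. The means were 306 ± 19.4 (SD, n = 5) and 391 ± 56.2 (SD, n = 7), 1.28-fold higher in diabetic lung. The log2 change was 0.34 (SE 0.10, 95% confidence interval 0.12 to 0.56), with an adjusted p of 0.128 from limma. Over the 22 alternatives it was 0.29 to 0.39, with an adjusted p of 0.0933 to 0.289.

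Rab14, which acts between the Golgi and early endosomes, had the highest log2 change of the 80 genes in the fit without covariates, and a wide spread. Its brightest probe set had signals of 2912, 3771, 4699, 3019 and 2451 in the normal animals, and of 3237 (lowest), 4601 (median) and 5513 (highest) in the diabetic animals. The groups overlapped widely, and normal animal 3 at 4699 was above 5 of the 7 diabetic animals. The log2 change was 0.41 (SE 0.15), with an adjusted p of 0.196 from limma, and it was 0.18 with the GAPDH ratio as a covariate. The other 3 probe sets of Rab14 had changes of -0.04 (SE 0.11), 0.13 (SE 0.11) and -0.04 (SE 0.14).

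Rab6b, a Golgi Rab with its main expression in nerve tissue, had signals of 698, 627, 602, 576 and 684 in the normal animals, and of 606 (lowest), 787 (median) and 869.6 (highest) in the diabetic animals. In 5 of 7 diabetic animals it was above the highest normal animal, with a log2 change of 0.24 (SE 0.09, adjusted p = 0.214 from limma). Rab3b, a Rab of regulated secretion, had signals of 284, 241, 208, 280.5 and 224 in the normal animals, and of 169 (lowest), 208 (median) and 244 (highest) in the diabetic animals. Here 3 of 7 diabetic animals were below the lowest normal animal, with a log2 change of -0.29 (SE 0.13, adjusted p = 0.269 from limma). Rab1a, which serves the step from the endoplasmic reticulum to the Golgi, had means of 4464 ± 317 (SD, n = 5) and 4727 ± 450.0 (SD, n = 7). Its log2 change was 0.08 (95% confidence interval -0.09 to 0.25).

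A few further Rab genes are given for their known roles and were chosen after their values were seen. Rab38 acts in the making of lamellar bodies in type II cells, and its means were 904 ± 89.4 (SD, n = 5) in normal and 851 ± 76 (SD, n = 7) in diabetic lung. Its log2 change was -0.09 (95% confidence interval -0.27 to 0.09). Rab3d and Rab27a, both Rabs of secretory granules, had changes of -0.13 (-0.43 to 0.17) and 0.21 (-0.03 to 0.44). The early endosome gene Rab5a had a change of 0.13 (-0.09 to 0.36), the late endosome gene Rab7a of 0.02 (-0.16 to 0.20) and the recycling endosome gene Rab11a of 0.02 (-0.14 to 0.18). Every one of these intervals includes 0, and the intervals of Rab7a and Rab11a leave out changes larger than 0.20 in either direction.

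The 7 other Rab-named genes encode partners and regulators of Rab proteins, and 4 were tested. Rab11fip5 and Rab3ip had log2 changes of 0.07 (95% confidence interval -0.35 to 0.48) and 0.07 (-0.16 to 0.30). Rab5if and Rab3gap2 had changes of 0.03 (-0.14 to 0.19) and -0.09 (-0.26 to 0.09). None of the 4 had an unadjusted p under 0.05, beside 16.4% of all probe sets, and the smallest adjusted p was 0.644.

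**Figure D4:**
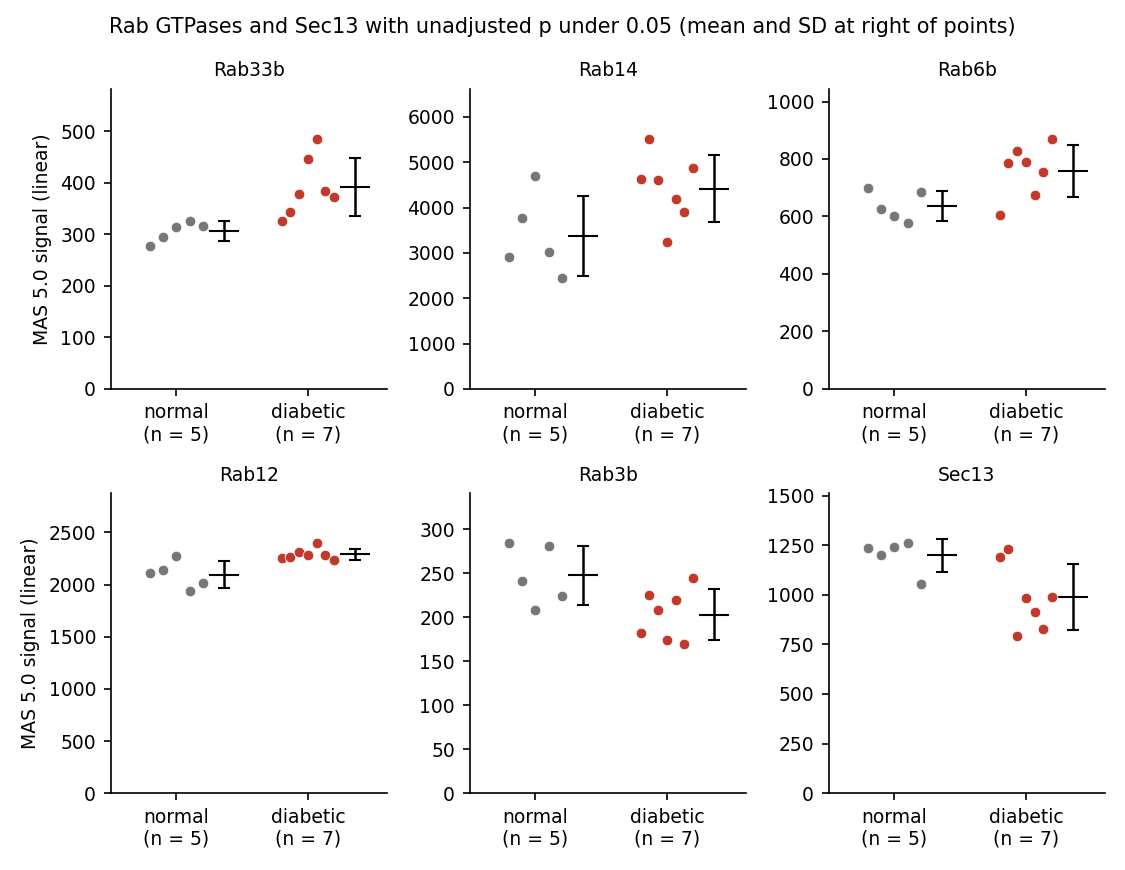
MAS 5.0 signal (linear scale) in each animal of 5 Rab GTPases and Sec13 with an unadjusted p under 0.05, with the mean and SD at the right of each group. Normal animals are in gray and diabetic animals in red, Rab33b did not overlap between the groups (highest normal 325, lowest diabetic 326), and the others overlapped.

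In the Sec genes of the COPII coat, 7 of 8 were tested. Of these, 5 had a negative log2 change, beside 52.8% of all probe sets, with a median of -0.06. Sec13, a subunit of the outer coat and also of the nuclear pore, had signals of 1234, 1202, 1243, 1260 and 1055 in the normal animals, and of 792 (lowest), 985 (median) and 1229 (highest) in the diabetic animals. In 5 of 7 diabetic animals it was below the lowest normal animal, and diabetic animals 1 and 2, at 1190 and 1229, were within the normal range. The means were 1199 ± 83.2 (SD, n = 5) and 989 ± 168 (SD, n = 7), with a log2 change of -0.29 (SE 0.11, adjusted p = 0.201 from limma), and of -0.45 with the GAPDH ratio as a covariate. Sec31a, which forms the outer coat together with Sec13, had a change of -0.06 (95% confidence interval -0.31 to 0.19). The inner coat genes Sec23b and Sec24b had changes of -0.14 (-0.33 to 0.05) and -0.07 (-0.40 to 0.27), and of -0.24 and 0.18 with that covariate.

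The other 13 Sec genes were all tested, and 0 had an unadjusted p under 0.05, beside 16.4% of all probe sets. The log2 change was above 0 in 4 and below 0 in 9, beside 47.2% and 52.8% of all probe sets, with a median of -0.08. Sec61a2 and Sec61g, subunits of the channel through which new proteins enter the endoplasmic reticulum, had log2 changes of -0.20 (95% confidence interval -0.41 to 0.01) and -0.11 (-0.24 to 0.03). For Sec61a2, 6 of 7 diabetic animals were below the lowest normal animal, and diabetic animal 6 at 367 was just below the highest normal animal at 368. With the GAPDH ratio as a covariate the change of Sec61a2 was -0.06 and that of Sec61g was -0.17. Sec11a, of the signal peptidase, had a change of -0.15 (-0.33 to 0.04), and Sec22b, a SNARE between the endoplasmic reticulum and the Golgi, had -0.14 (-0.35 to 0.06). With that covariate they were at -0.29 and -0.22. Sec14l3, which encodes a lipid-binding protein related to yeast Sec14, had means of 6301 ± 1091 (SD, n = 5) and 6011 ± 1324 (SD, n = 7). Its change was -0.08 (-0.38 to 0.23), and it was 0.38 with the GAPDH ratio as a covariate.

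For 18 of these genes more than 1 probe set was tested, which gave 20 pairs of the brightest and another probe set. The log2 changes had the same sign in 11 pairs and the opposite sign in 9. In Rab12, a Rab of recycling endosomes, the brightest probe set had means of 2095 ± 126 (SD, n = 5) and 2290 ± 53.5 (SD, n = 7) and a change of 0.13 (SE 0.06). Its other probe set had means of 397 ± 45.4 (SD, n = 5) and 315 ± 86.3 (SD, n = 7) and a change of -0.37 (SE 0.16). The unadjusted p was 0.0437 and 0.0376 in limma, so the direction for Rab12 depended on the probe set. Rab34 had changes of 0.07 (SE 0.10) and -0.26 (SE 0.11), and Rab5b of 0.15 (SE 0.08) and -0.13 (SE 0.09). In Sec62, another gene of protein entry into the endoplasmic reticulum, the brightest probe set had a change of 0.01 (SE 0.09) and the other of 0.23 (SE 0.07, adjusted p = 0.145 from limma). These 4 genes were chosen after their values were seen.

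**Figure D5:**
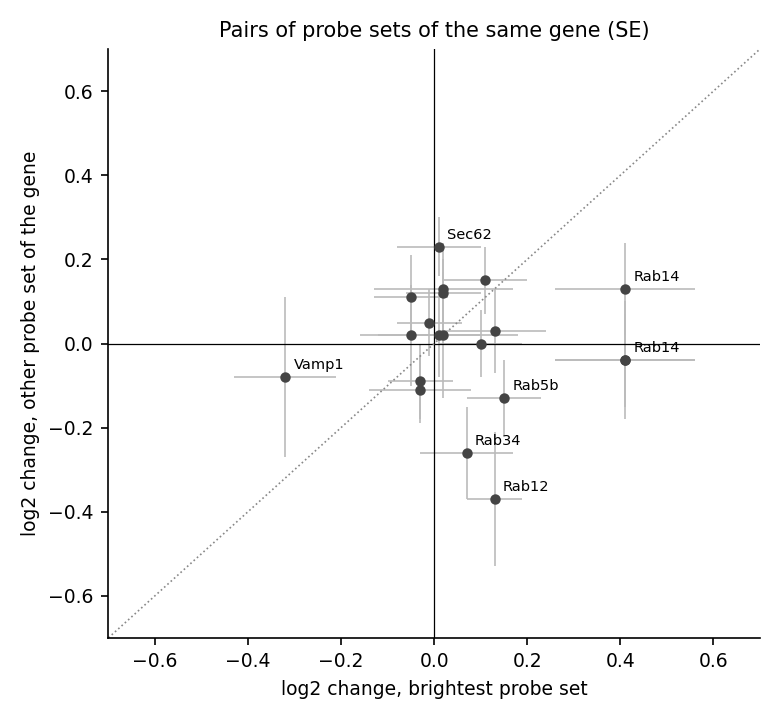
Log2 change (diabetic minus normal) of the brightest probe set of a gene on the horizontal axis and of another tested probe set of the same gene on the vertical axis, for 20 pairs from 18 genes, with bars for the SE. The dotted line marks equal changes, 9 pairs lie on opposite sides of 0, and Rab12 lies at 0.13 and -0.37.

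The 15 genes under the filter on low signals were Rab3a, Rab3c, Rab3il1, Rab11fip3, Rab11fip4, Rab15, Rab23, Rab26, Rab27b, Rab39a, Sec16b, Snap25, Snap91, Stx17 and Stx1a. Several of these, such as Rab3a, Rab3c, Snap25 and Stx1a, are best known from the release of neurotransmitter, and Snap91 encodes a clathrin assembly protein, not a SNARE. Stx1a, the syntaxin of nerve endings, had 2 probe sets, and its brighter one had means of 30.4 ± 19.7 (SD, n = 5) and 28.7 ± 17.4 (SD, n = 7). The dimmer one had 13.3 ± 4.9 (SD, n = 5) and 44.5 ± 22.9 (SD, n = 7), with a log2 change of 1.59 (SE 0.44, adjusted p = 0.166 from limma when all probe sets were kept). Such low signals are differences of match and mismatch probes near background, and no level of Stx1a is read from them.

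Other genes of the same pathways were taken from 7 lists of 122 genes that the naming rule does not cover, of which 106 were on the array and 100 were tested. At an adjusted p of 0.05, 0 of the 100 passed, and at an unadjusted p under 0.05, 4 were higher and 10 lower, beside 7.75% and 8.68% of all probe sets. Of the 100, 35 had a positive and 65 a negative log2 change, beside 47.2% and 52.8% of all probe sets, with a median of -0.04. In the COPI list, the coat of vesicles within the Golgi and back to the endoplasmic reticulum, 16 of 20 genes had a negative change, beside the same 52.8%, with a median of -0.11. Arf4, a GTPase that starts coat assembly, had means of 2532 ± 119.6 (SD, n = 5) and 2147 ± 117 (SD, n = 7) and a change of -0.24 (SE 0.06, adjusted p = 0.0926 from limma). The coat subunit gene Copz1 had a change of -0.22 (SE 0.07, adjusted p = 0.178 from limma). Among 14 genes that help COPII or carry its cargo, 11 had a negative change, again beside 52.8%, with Surf4 at -0.31 (SE 0.11) and Lman1 at -0.19 (SE 0.09), both cargo receptors. With the GAPDH ratio as a covariate Surf4 had a change of -0.71 and was past the adjusted threshold.

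Of 14 genes listed as binding partners or relatives of the VAP proteins, 9 were tested. The unadjusted p was under 0.05 for 3 that were higher and for 0 that were lower, beside 7.75% and 8.68% of all probe sets. A positive log2 change was found for 5 of the 9 and a negative one for 4, beside 47.2% and 52.8%. The list was chosen with earlier results known. Acbd5, which ties peroxisomes to the endoplasmic reticulum through the VAP proteins, had means of 751 ± 113 (SD, n = 5) and 1045 ± 200.2 (SD, n = 7) and a log2 change of 0.47 (SE 0.13, adjusted p = 0.114 from limma). Osbp, a sterol carrier between the endoplasmic reticulum and the Golgi, had a change of 0.24 (SE 0.08, adjusted p = 0.183 from limma), and Pitpnm1, a carrier of phosphatidylinositol, had 0.23 (SE 0.09, adjusted p = 0.218 from limma). Cert1, which carries ceramide to the Golgi, had a change of -0.01 (SE 0.09). The lowest of the partners was Osbpl9, another sterol-binding protein gene, at -0.15 (SE 0.14), and the median over the 9 was 0.07.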

How the data were processed

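Signals came from Affymetrix RAE 230A arrays of 12 lungs, named by the labels as normal or diabetic. The authors computed the deposited intensity of each probe set with MAS 5.0 and scaled each array to a common trimmed mean (499.6 to 499.8 without the lowest and highest 2%); nothing was pooled, all columns were matched to a sample, and the scale is linear. Here signals were taken to log2 (1 value at or below 0 became 0.1), 57 control probe sets were left out, and the groups were set against each other with limma 3.58.1 in R 4.3.3 (lmFit and eBayes, the latter with a trend on intensity), two-sided, over all 9520 probe sets above the filter, with Benjamini-Hochberg adjustment. The code was tested on simulated data. Genes were named from the platform annotation, and all 95 symbols were unchanged in RefSeq. Figures used python 3.11.15 and matplotlib 3.10.9.

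The members and lists were chosen with earlier results of these data known. Named with values were all probe sets of Vapa and Vapb and all members without overlap. So were up to 4 members of smallest p and the 2 of highest signal in each group. Other members given with values, among them Sec14l1, Snap25 and Stx1a, lay outside this rule and were chosen with their values known. Replicate numbers did not pair the animals (correlation of deviations -0.123 to 0.038). The number of arrays limits the precision. BAMarray and the present and absent calls were not used here. Alternatives covered scaling, pseudocount, filter, variance model, array weights, block, RNA ratio, threshold and omitted animals.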

Additional observations from a re-analysis of the deposited data

Results flagged for a closer look

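Of 68 groups of animals examined over the named probe sets, 2 held a value far from the rest by Dixon's test, which by chance marks about 1 in 20 groups. For Sec13, normal animal 5 had a signal of 1055, below the 1202 to 1260 of the other 4 normal animals. For Rab5if, normal animal 2 had a signal of 1231, below the 1537 to 1654 of the other 4 normal animals. Leaving out each animal in turn kept the log2 change of Sec13 at -0.35 to -0.24 and that of Rab5if at -0.05 to 0.06.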

How the results depend on the processing

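No trafficking gene passed an adjusted p of 0.05 in limma under any alternative but the GAPDH ratio as a covariate, where 1 did (Sec14l1, 0.60), as did 1 gene of the other machinery (Surf4, -0.71); at an adjusted p under 0.10 there were 2 and 1. Over all probe sets 16 passed, and 25 with quantile normalization, 7 without a filter, 9 without an intensity trend, 80 with array weights, 288 with the GAPDH ratio, 196 under 0.10, and 2 to 30 when each animal was left out. The count of genes without overlap, which leaving out an animal cannot lower, was then 3 to 5. The replicate block left 0 trafficking genes past the threshold; with that pairing Vapb was at -0.21 and -1.26, and the difference between its probe sets was 1.05, no longer past the threshold (exact sign-flip test over 5 pairs, p = 0.0625, the smallest it allows). It was 0.83 to 1.09 with each animal left out, and 0.34 with the GAPDH ratio, a model added after seeing the data. Signs turned for values near 0 in the main setting. With median centring Stx12 was 0.03 and Stx7 0.01, with array weights Sec31a was 0.00, with the block both Stx12 and Stx7 were 0.02, and without diabetic animals 6 and 7 both were 0.02. With the GAPDH ratio Sec24b was 0.18, Rab1a -0.12, Snap29 -0.03, Rab3gap2 0.07, Rab3ip -0.02, Sec14l3 0.38 and Stx12 0.02. With each animal left out, Sec31a ranged from -0.12 to 0.00, Stx12 from -0.05 to 0.04, Stx7 from -0.06 to 0.01, Rab5if from -0.05 to 0.06, Rab11fip5 from -0.07 to 0.21 and Sec24b from -0.13 to 0.04. The cause was not tested.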
